A study of Mus musculus with 4 samples.

Results

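The NR4A and EGR genes that thymocytes switch on after T cell receptor (TCR) signalling were described in single-cell RNA-seq counts of mouse thymus. The members are 8 of the 21926 genes counted, chosen by symbol: Nr4a1, Nr4a2, Nr4a3, Egr1, Egr2, Egr3, Nab1 and Nab2. Their values were taken from 1 library of a WT mouse (Eif4g2 flox/flox without Cre) and 1 library of a Cd4-Cre; Eif4g2 flox/flox mouse (Eif4g2 cKO), both given as female, 5 weeks old and of the same batch, on a C57BL/6 background. Both mice thus carry the floxed allele and differ by the Cre transgene, which the Cd4 promoter drives from the DP stage on, so that DN cells and the cells outside the T lineage keep the gene. The suspensions were whole thymus without a sort, and with 1 library per genotype there is no replicate and no test: every interval given is a 95% interval for counting error alone.

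TCR signalling in the thymus acts through calcium, which leads to MEF2D, NFAT and the NR4A orphan nuclear receptors, and through the RAS and ERK cascade, which leads to the EGR zinc finger factors. Nr4a1 (Nur77) is widely used as a reporter of TCR signal strength, and NR4A factors take part in the death of strongly self-reactive thymocytes and in regulatory and agonist-selected fates. EGR factors bind GC-rich sites and are needed for efficient positive selection. NAB1 and NAB2 bind EGR proteins and restrain them as corepressors, and Nab2 is itself an EGR target.

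The promoter stretches of the NR4A genes and of Egr2 are shown because their windows held the core described below outside annotated exons. They were read from the RefSeq promoter table for GRCm38.p6 and run 5′ to 3′ on the gene's own strand. They lie upstream of a start listed in that table and outside annotated exons. Starts of 6 members were used: the table listed none for Egr3, and Egr1 was left out of the search. The Nr4a2 and Nr4a3 stretches lie before the annotated gene, whereas those of Nr4a1 and Egr2 lie within the gene's span, which begins further upstream. Capitals mark TGACG or its reverse complement CGTCA, the core of the cyclic AMP response element that CREB and ATF factors bind. The stretches lie at chr15:101266603-101266820 (plus strand) for Nr4a1, chr2:57124100-57124213 (minus) for Nr4a2, chr4:48045064-48045114 (plus) for Nr4a3 and chr10:67537748-67537828 (plus) for Egr2.
Nr4a1: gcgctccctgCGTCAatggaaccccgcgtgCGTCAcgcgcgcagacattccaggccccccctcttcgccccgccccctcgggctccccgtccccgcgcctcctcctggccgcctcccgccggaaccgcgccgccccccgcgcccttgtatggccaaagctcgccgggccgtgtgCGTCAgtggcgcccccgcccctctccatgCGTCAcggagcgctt
Nr4a2: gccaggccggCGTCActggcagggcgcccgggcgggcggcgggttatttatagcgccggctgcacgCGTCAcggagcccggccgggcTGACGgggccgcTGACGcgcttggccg
Nr4a3: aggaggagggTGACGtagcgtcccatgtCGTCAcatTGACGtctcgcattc
Egr2: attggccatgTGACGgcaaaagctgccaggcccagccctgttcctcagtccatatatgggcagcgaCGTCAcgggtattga

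Each of the 3 NR4A windows, which reach 250 bases upstream of the start, held 4 copies of this core on either strand, of which the Nr4a3 stretch shows 3. Of 32851 windows of the same length in the table, 17.8% held at least 1 copy and 0.688% held 3 or more. The Egr2 window held 2 copies and a CArG box, the serum response element core that SRF binds, which 1.47% of windows held. The Nr4a1 window held 1 EGR site, GCGGGGGCG, found in 2.57% of windows. The Nab1 window held 1 core, 1 copy of the same EGR site and 2 copies of the variant GCGTGGGCG, which 0.536% of windows held, all within annotated exons and therefore not printed. None of the motifs searched was found in the Nab2 window. The full element TGACGTCA, found in 1.55% of windows, and AAAGGTCA, the monomer site of NR4A receptors, found in 1.34%, were in none of the 6 windows. These are matches of letters, counted on both strands, and the full element contains the core. The windows were not matched for base content, and the part of these motifs in the members' levels was not tested.

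The WT library held 6014 barcodes with 18355050 UMIs and the cKO library 4335 with 18056277, with medians of 1733.5 and 2140 UMIs per cell. Cells were grouped into 11 clusters, built without the members, the TCR response genes described in part below, immediate-early and stress genes, Eif4g2 and sex-linked genes, and named from marker lists. They gave DN, DP, cycling, early post-selection and mature SP stages and 3 small classes of other cells. The WT library goes against its label: Uty, Kdm5d and Eif2s3y, which lie on the Y chromosome, had 2542 UMIs in it against 1 in the cKO library, so sex and genotype cannot be told apart in any comparison of the libraries. A wrong sex in the labels and an exchange of samples cannot be told apart either. Both libraries are labelled female, so exchanging them with each other would still leave the Y-linked UMIs under a female label. Eif4g2 itself had 4088 UMIs in WT and 4941 in cKO. Whether its tags lie in the deleted part is not given here, so these counts do not check the genotype. WT and cKO are therefore the names in the labels. If these libraries were exchanged with each other, every ratio of cKO over WT would change its sign. The libraries also shared 1055 barcode names, which are generic numbers and not cell sequences.

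Among the 5 thymocyte stages all 8 members were highest in the early post-selection cells of both libraries, the cluster led by Itm2a, Cd2, Cd5 and Tox, which held 12.8% of WT and 13.2% of cKO cells. The 9 markers that named this stage include Cd69 and Cd5, which TCR signalling also induces, so the stage was not chosen independently of signalling. All 8 members were higher there than in DP cells by over 1 on the log2 scale in WT, where 4.23% of all genes with at least 50 UMIs were, and in cKO, where 2.38% were. At least 50 UMIs in the pair of stages were held by 7 members in WT and 5 in cKO. The median log2 ratio of early post-selection over DP was 4.02 for the members in WT and 3.75 in cKO, against -0.15 and -0.23 over all genes.

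Among the NR4A genes, Nr4a1 had 274 CPM (UMIs of the gene per 1000000 UMIs of the class; 95% interval 249 to 301) in early post-selection cells of WT and 252 (226 to 281) in cKO. In DP cells it had 14.9 and 13.1 CPM, which makes the early cells 18.4-fold higher in WT and 19.3-fold in cKO. Its order in WT ran from early post-selection to mature SP (83.0 CPM) and then to DP, cycling (14.7) and DN (13.8), and those last 3 did not differ beyond their intervals. Nr4a2, which is better known from dopaminergic neurons, had 35.6 CPM in the early cells of both libraries against 4.40 in WT and 3.19 in cKO DP cells. In the cKO library 22 of its 47 UMIs there came from 1 cell of the Xcl1 sub-cluster described further on, and the level without that cell was 19.0 CPM. Nr4a3, which shares targets with Nr4a1 in thymocytes, had 35.6 CPM (27.0 to 46.2) in early cells of WT and 18.9 (12.2 to 27.9) in cKO, with 2.49 and 1.16 CPM in DP cells.

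Among the EGR genes, Egr1 had 202 CPM (180 to 225) in early post-selection cells of WT and 242 (216 to 270) in cKO, and 23.3 and 28.1 CPM in DP cells. Egr2, which acts with Egr1 and Egr3 in selection and in NKT cell development, had 27.5 CPM in early cells of WT and 34.1 in cKO, against 1.34 and 0.87 in DP cells. Egr3 was close to the limit of detection, with 17 UMIs in early cells of WT and 8 in cKO. In DP cells it had 1 and 4 UMIs, so the ratio of 55.6 in WT carries a log2 interval of 3.12 to 11.2. It was the 1 member that was about as high in mature SP as in early cells of WT, at 9.19 against 10.6 CPM (log2 -0.21, interval -1.16 to 0.77).

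The corepressors differed from each other in how far they stood above the DP level. Nab2 had 166 CPM in early post-selection cells of WT and 171 in cKO, 21.7-fold and 31.0-fold the DP level. Nab1 had 68.8 and 43.9 CPM there and 17.2 and 20.9 in DP cells, the smallest ratio among the members in both libraries. In cKO the 14 cells of the NKT or gamma delta T class had 85.9 CPM of Nab1 (31.5 to 187) on 6 UMIs, above the early cells but with overlapping intervals. The log2 intervals of these ratios, 3.96 to 4.96 for Nab2 and 1.58 to 2.42 for Nab1 in WT, do not overlap.

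**Figure D1:**
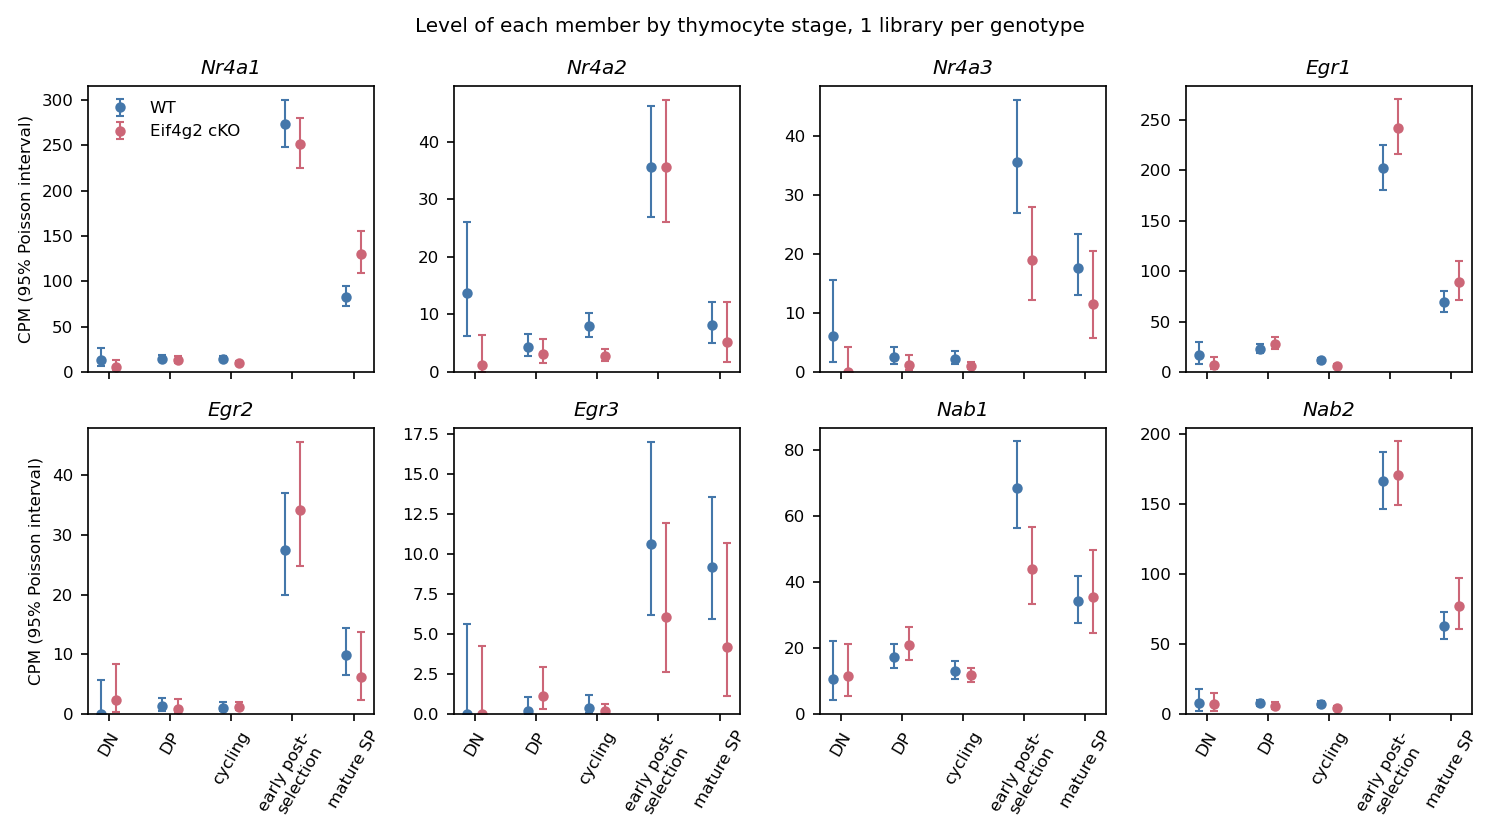
CPM of each member (y axis, linear, own scale per gene) in 5 thymocyte stages (x axis) in the WT library (blue) and the Eif4g2 cKO library (red), 1 library each. Points are summed counts of a class and bars are 95% Poisson intervals. Every member is highest in early post-selection cells in both libraries, with mature SP cells in between for most of them.

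The low levels in DP, cycling and DN cells were set beside erythroid cells, which should lack these transcripts. In the 43 erythroid cells of WT (median 6096 UMIs, against 1402.5 in DP cells), Nr4a1 had 3 UMIs, or 11.2 CPM (2.31 to 32.7), Egr1 had 1 UMI, or 3.73 CPM (0.094 to 20.8), and the other 6 members had none. With each cell thinned to 1000 UMIs, 5.89% of DP cells held a UMI of at least 1 member in WT, against 4.65% (0.568 to 15.8) of erythroid cells. The DP share is thus not distinguishable from background at this number of erythroid cells. By CPM, Nr4a1 in DP cells lay within the erythroid interval. Egr1 at 23.3 (19.4 to 27.9) and Nab1 at 17.2 (13.84 to 21.16) lay above the erythroid upper limits of 20.8 and 13.75. The lower end for Egr1 falls below its limit. In erythroid cells of WT the 5 erythroid markers summed to 913518 CPM, which leaves few UMIs for other transcripts. Levels by CPM and shares at 1000 UMIs are therefore lowered there, and cannot show that a member in DP cells exceeds background. The cKO library had 4 erythroid cells, too few for the same comparison.

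Mature SP cells held the members at lower levels than early post-selection cells. In WT, 7 members were lower by over 1 on the log2 scale, Egr3 being the exception, against 8.16% of all genes, and the median was -1.44 against -0.33 over all genes. In cKO, 4 were lower (Nr4a2, Egr1, Egr2 and Nab2), against 6.72% of all genes, with a median of -1.05 against -0.29. Nr4a1 differed by less in cKO, at -0.95 (-1.26 to -0.65) against -1.72 (-1.96 to -1.49) in WT. Compared with DP cells, 6 members were higher by over 1 in mature SP cells of each library, all but Nr4a2 and Nab1, against 7.71% of all genes in WT and 3.47% in cKO. The medians were 2.65 and 2.35, against -0.48 and -0.51 over all genes. At least 50 UMIs were held by 7 members in WT and 6 in cKO for mature over early cells. For mature over DP cells, 5 and 4 members held them.

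The transcripts were concentrated in few cells. In early post-selection cells of WT, the 438 UMIs of Nr4a1 came from 143 cells, a mean of 3.06 per cell with any, with up to 16 in 1 cell and 28 cells at 5 or more. In cKO, 333 UMIs came from 116 cells, at 2.87 per cell. Egr1 had 2.10 and 1.85 UMIs per such cell, whereas Egr2 had 1.22, Nab1 1.26 and Nab2 1.41 in WT. The reference genes Polr2a and Ywhaz, whose totals of 284 and 845 UMIs in WT lie on either side of that of Nr4a1, had 1.38 and 1.93. Poisson intervals are too narrow for transcripts that cluster in cells in this way, Nr4a1 above all, since they take each UMI as independent.

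At 1000 UMIs per cell, 12.7% of early post-selection cells held a UMI of Nr4a1 in WT and 14.6% in cKO. For Egr1 the shares were 13.7% and 19.9%, and for Nab2 14.4% and 17.2%. At least 1 member was seen in 38.8% (35.3 to 42.3) of early cells of WT and 45.8% in cKO, and at least 2 in 11.8% and 12.9%. In mature SP cells at least 2 were seen in 3.51% (2.26 to 5.18) and 7.93% (4.77 to 12.2), and in DP cells in 0.363% and 0.288%. Without thinning, 143 and 116 early cells held Nr4a1, as given above.

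Nr4a1 and Egr1 were found in the same cell more often than independent detection would give in WT, while in cKO the interval included 1. In the thinned early cells of WT, 28 cells held both against 13.4 expected, a ratio of 2.09 (1.39 to 3.02). In cKO, 24 held both against 16.7 expected, a ratio of 1.44 (0.92 to 2.14), and the intervals of the libraries overlap. Of the member pairs, 6 in WT and 4 in cKO had at least 5 cells expected, with median ratios of 1.65 and 1.38, while 28 and 25 pairs of a member with a reference gene had medians of 0.98 and 1.01. Egr1 with Nab2 gave 0.99 (0.55 to 1.63) in WT and 1.32 (0.86 to 1.94) in cKO. Nab1 with Nab2 gave 2.18 (1.27 to 3.49) in WT.

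Other pairs also exceeded the expected number, though on under 5 expected cells each. Within families, Nr4a1 and Nr4a3 shared 14 cells of WT against 2.42 expected, and 3 of cKO against 1.17. Egr1 and Egr2 shared 13 cells against 2.87 expected in WT and 9 against 3.57 in cKO. Across families, Nr4a1 and Egr2 shared 9 against 2.68 in WT and 8 against 2.63 in cKO.

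**Figure D2:**
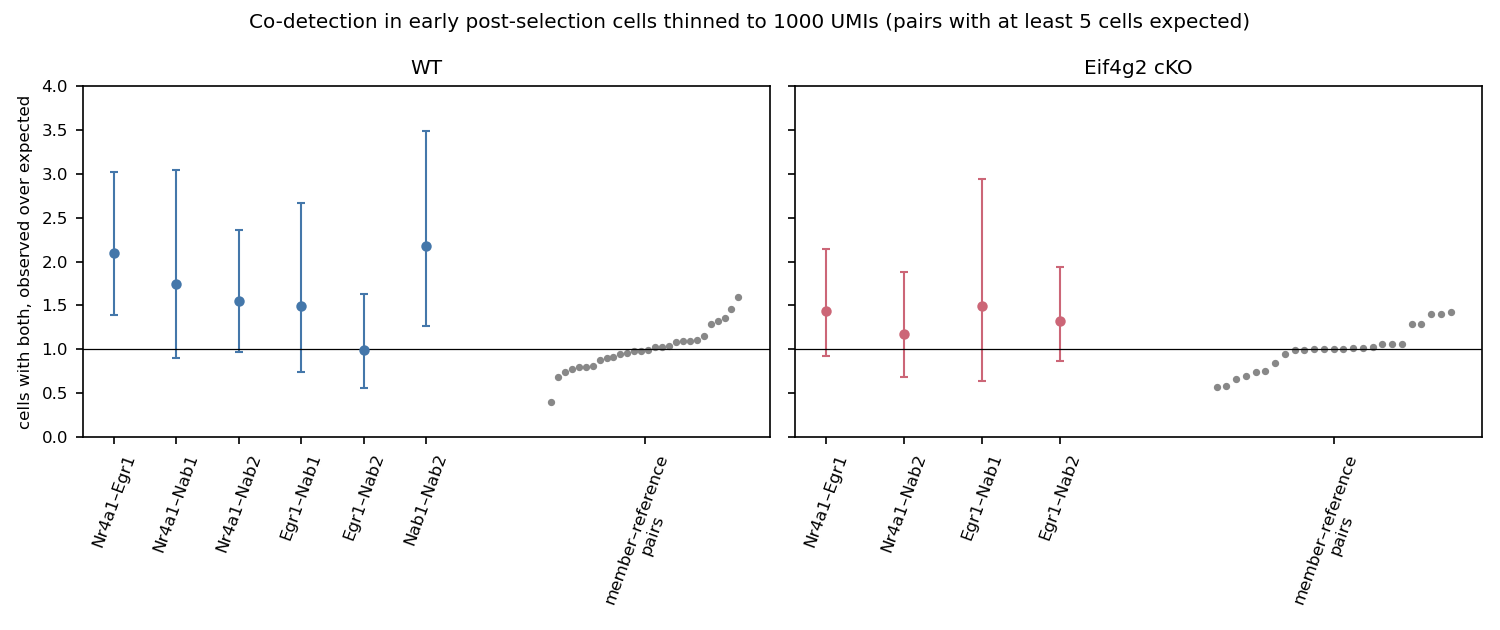
Number of early post-selection cells with both transcripts over the number expected from independent detection (y axis), each cell thinned to 1000 UMIs, for member pairs with at least 5 cells expected (coloured points, exact 95% Poisson intervals) and for pairs of a member with a reference gene (grey points in ascending order, no intervals) in WT (left) and Eif4g2 cKO (right). The Nr4a1 and Egr1 pair stands at 2.09 in WT and 1.44 in cKO, and the grey points centre on 1.

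Splitting the early post-selection cells by 1 transcript showed that the remainder of the set did not follow Nr4a1 and Egr1 alike. Cells with Nr4a1 at 1000 UMIs (98 in WT, 84 in cKO) held 196 CPM of Nr4a3 in WT against 10.1 in cells without (log2 4.27, 3.37 to 5.26), and 61.0 against 11.6 in cKO (2.40, 1.14 to 3.65). Nr4a2 had 164 against 15.2 CPM in WT (3.43, 2.62 to 4.28). In cKO it had 142 against 16.9, but 22 of the 28 UMIs in cells with Nr4a1 came from 1 cell, without which it had 31.9 against 16.9 (0.92, -0.70 to 2.30). Cells with Egr1 (105 and 114), by contrast, held 47.6 against 33.6 CPM of Nr4a3 in WT (0.50, -0.60 to 1.47) and 8.57 against 21.1 in cKO (-1.30, -4.43 to 0.71). Nr4a2 by Egr1 had the same UMIs and level as Nr4a3 in WT (0.50, -0.60 to 1.47). In cKO it had 98.5 against 22.1 CPM (2.16, 1.27 to 3.05), and 4.45 against 22.1 without the same cell (-2.31, -7.67 to 0.31).

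Egr2 was higher in cells with Egr1 in both libraries, with 86.6 against 17.5 CPM in WT (log2 2.30, 1.37 to 3.22) and 98.5 against 20.2 in cKO (2.28, 1.38 to 3.20). Its log2 ratio by Nr4a1 was 1.40 (0.34 to 2.38) in WT and 1.37 (0.34 to 2.32) in cKO, whose intervals overlap those by Egr1. Egr3, on 17 UMIs in WT and 8 in cKO, stood at 3.08 (1.54 to 4.71) and -0.59 (-6.08 to 2.37) by Egr1. Nab2 differed by Nr4a1 in WT (296 against 146 CPM, log2 1.02, 0.60 to 1.43) and showed 0.07 (-0.46 to 0.56) by Egr1, while in cKO it showed 0.47 (-0.04 to 0.95) by Nr4a1 and 0.75 (0.30 to 1.19) by Egr1. For each factor the Nab2 intervals of the libraries overlap.

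Cd69, an early activation antigen, was higher in cells with Nr4a1 (465 against 91.3 CPM in WT, 584 against 92.5 in cKO) and in cells with Egr1 (303 against 115, and 394 against 117). The sum of 24 TCR response genes differed by 1.10 (1.00 to 1.19) on the log2 scale by Nr4a1 and 0.35 (0.25 to 0.46) by Egr1 in WT, and by 0.85 and 0.41 in cKO. The sum of 17 immediate-early and stress genes differed by 0.54 by Nr4a1 and 0.22 by Egr1 in WT, and by 0.66 and 0.40 in cKO. The sum of 8 reference genes differed by 0.09 (-0.03 to 0.20) and -0.07 (-0.19 to 0.04) in WT, and by -0.12 (-0.23 to -0.01) and 0.04 (-0.06 to 0.14) in cKO. Median depth was alike, at 1706.5 UMIs in WT cells with Nr4a1 and 1750 in those without. The part of dissociation in these differences was not tested.

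**Figure D3:**
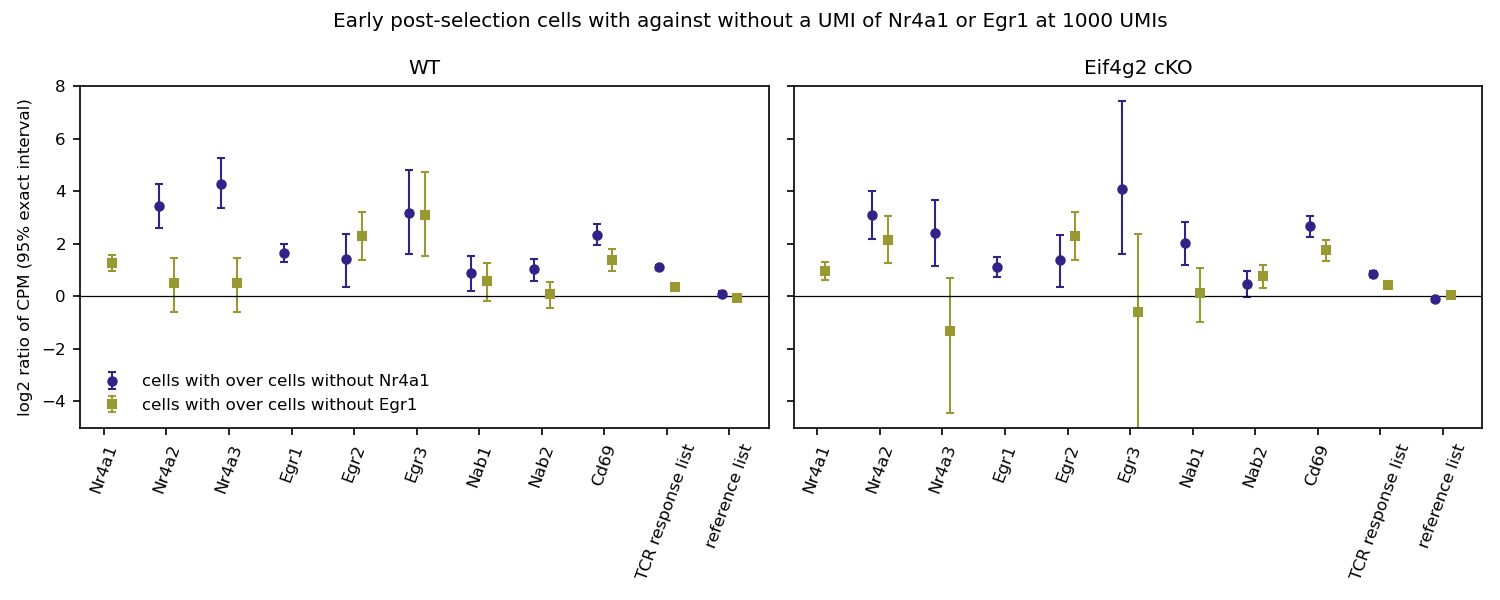
Log2 ratio of CPM (y axis) between early post-selection cells with and without a UMI of Nr4a1 (circles) or Egr1 (squares) at 1000 UMIs, for each other member, Cd69, the summed TCR response list and the summed reference list (x axis) in WT (left) and Eif4g2 cKO (right). Bars are exact 95% intervals, 1 of which runs below the axis in cKO. Nr4a3 stands at 4.27 by Nr4a1 and 0.50 by Egr1 in WT, and the reference list lies between -0.12 and 0.09 in the 4 splits.

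The early and mature cells were divided further into 6 sub-clusters, again without the members, and these were named by leading genes after their values were seen. The members peaked in 2 of them. The sub-cluster led by Hivep3 and Myb (283 WT and 207 cKO cells) had the most Egr1, at 295 and 413 CPM, and the most Nab2, at 257 and 262 CPM. It also had the most Egr2, at 62.1 and 48.6 CPM, though in cKO the Il7r and Id2 cells, at 41.8 CPM, did not differ beyond the intervals. The sub-cluster led by Xcl1, Nrgn, Tnfrsf9 and Pdcd1 (71 and 59 cells), whose leading gene is itself on the list of innate-like T cell markers, had the most Nr4a2, at 115 and 117 CPM (37.6 in cKO without the cell of 22 UMIs). Tnfrsf9 and Pdcd1 are on the list of TCR response genes. Nr4a1 was high in both, at 361 CPM in the Hivep3 and 440 in the Xcl1 cells of WT, and at 440 and 306 in cKO. In the Xcl1 cells of cKO, 18 of the 84 Nr4a1 UMIs came from that same cell of 22 Nr4a2 UMIs.

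The split by Nr4a1 was repeated without the Xcl1 cells. Nr4a3 then stood at 5.06 (3.86 to 6.48) on the log2 scale in WT and 2.83 (1.45 to 4.22) in cKO, and Nr4a2 at 2.54 (1.41 to 3.65) in WT. In cKO Nr4a2 stood at 1.11 (-0.98 to 2.83), close to its value without the 1 cell of 22 UMIs, which is itself an Xcl1 cell. Nab2 by Nr4a1 stood at 0.66 (0.14 to 1.15) in cKO.

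The balance between the families therefore differed between those sub-clusters. Nr4a UMIs made up 79.5% (73.7 to 84.5) of Nr4a and Egr UMIs in the Xcl1 sub-cluster of WT and 77.9% (70.5 to 84.2) in cKO, against 54.9% (49.9 to 59.8) and 51.0% (45.7 to 56.3) in the Hivep3 sub-cluster. Of the 120 Nr4a UMIs in the Xcl1 cells of cKO, 1 cell held 22 of Nr4a2 and 18 of Nr4a1. The interval of that share is therefore too narrow. A high Nr4a share was not particular to the Xcl1 cells. The sub-cluster led by Hist1h2ae and Hist1h2ab had 70.0% (56.8 to 81.2) in WT and 80.0% (59.3 to 93.2) in cKO, with overlapping intervals. Egr1 was lower in the Xcl1 than in the Hivep3 sub-cluster by 1.22 (0.67 to 1.81) on the log2 scale in WT and 2.02 (1.43 to 2.65) in cKO, and Nab2 by 1.82 and 2.85. The sub-cluster of the most mature cells, led by Ifit1, Slfn1, Klf2 and S1pr1 (357 and 112 cells), had 44.3 and 91.5 CPM of Nr4a1, 58.9 and 112 of Egr1 and 64.7 and 86.3 of Nab2. The cells led by Dntt and Arpp21 and those led by Il7r and Id2 lay between, with 143 to 153 CPM of Nr4a1 in WT and 144 to 147 in cKO.

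**Figure D4:**
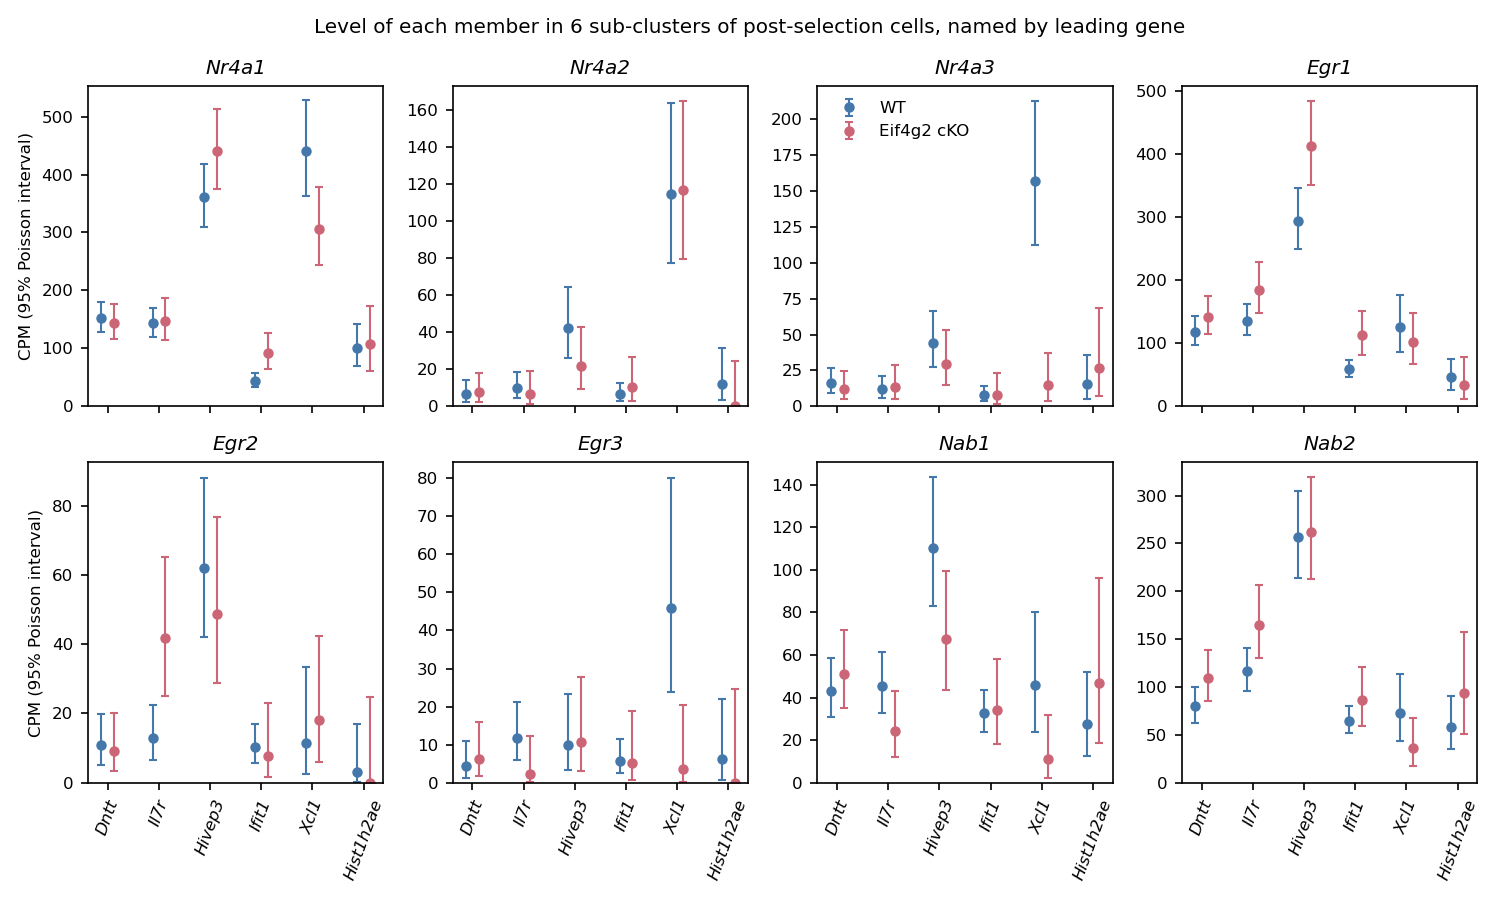
CPM of each member (y axis, linear, own scale per gene) in 6 sub-clusters of early post-selection and mature cells, named by the leading gene (x axis), in WT (blue) and Eif4g2 cKO (red), 1 library each, with 95% Poisson intervals. Egr1, Egr2 and Nab2 peak in the Hivep3 cells, while Nr4a2 peaks in the Xcl1 cells and Nr4a3 does so in WT, at 157 against 14.6 CPM in cKO.

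The cKO library was compared with WT stage by stage to ask whether loss of eIF4G2 moved these genes. In early post-selection cells the members' median log2 ratio of cKO over WT was -0.06, against -0.26 over all genes. No member was higher by over 0.5, against 7.6% of genes, and 3 were lower, against 35.7% of genes, so the members' share is near the background. Members were counted at any number of UMIs, whereas the shares of genes in all stages compared cover those with at least 50. That minimum was met by 7 members here. Without the 1 cell that held 22 Nr4a2 UMIs, Nr4a2 stood at -0.90 (-1.64 to -0.20), 4 members were lower and the median was -0.41. Nr4a1 differed by -0.12 (-0.33 to 0.09), Nab2 by 0.04 (-0.22 to 0.30) and Egr2 by 0.31 (-0.32 to 0.94), with no difference detectable at this depth. Egr1 was higher by 0.26 (0.03 to 0.49).

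With all cells, the members lower in early cells of cKO were Nr4a3, Egr3 and Nab1. Nr4a3 differed by -0.91 (-1.65 to -0.21), but by -0.09 with each cell thinned to 1000 UMIs. Nab1 differed by -0.65 (-1.13 to -0.18) and Egr3 by -0.81 (-2.23 to 0.48) on 25 UMIs. Across all genes the ratio moved with genomic span, with a median in early cells of 0.14 where the span was 5 kb or less and -0.93 where it exceeded 100 kb, and the same order was seen in DN cells, at 0.10 and -0.90. Nab1 and Nr4a3 are the longest members, at 43.4 and 41.3 kb. Relative to genes of like span they stood at -0.34 and -0.61. The part of gene span in these values was not tested.

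In DP cells the median was -0.33 against -0.18 over all genes, with 1 member higher by over 0.5 (8.34% of genes were) and 2 lower (29.5% were). Those were Egr3 (1 UMI in WT and 4 in cKO), Nr4a3 (13 and 4) and Egr2 (7 and 3), and no member's interval excluded 0. The DP level of cKO was thus not distinguishable from that of WT for any member at this depth.

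In mature SP cells Nr4a1 was higher in cKO, at 131 (109 to 156) against 83.0 CPM (72.6 to 94.6), a log2 ratio of 0.65 (0.33 to 0.98). It was the 1 member higher by over 0.5, where 9.02% of genes were, and 4 were lower, where 34.3% were, each with an interval that includes 0. Egr1 differed by 0.36 (-0.03 to 0.73) and Nab2 by 0.30 (-0.11 to 0.70). Nr4a1 was higher in cKO among cells with Cd4 transcripts only (159 against 77.4 CPM), Cd8 transcripts only (97.1 against 71.2) and both or neither (141 against 95.4), with overlapping intervals in each. In the Ifit1 and Klf2 sub-cluster it differed by 1.05 (0.40 to 1.67) and Egr1 by 0.93 (0.37 to 1.48). In the others, early cells included, Nr4a1 differed by 0.29 (Hivep3), 0.09 (the histone genes Hist1h2ae and Hist1h2ab), 0.04 (Il7r), -0.09 (Dntt) and -0.52 (Xcl1). The mature class differed in make-up, with Dntt and Arpp21 cells at 18.9% (14.1 to 24.7) in cKO and 11.3% (9.0 to 13.9) in WT, and its summed Treg markers (5 of 5 detected) were at 219 CPM in cKO and 426 in WT. The part of make-up in this difference was not tested.

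Cycling cells showed the most members lower in cKO, though at low levels. There 6 of 8 were lower by over 0.5, where 35.7% of genes were, none was higher, where 3.13% were, the intervals of 5 lay below 0, and the median was -0.78 against -0.28 over all genes. Nr4a2 had 8.01 CPM in WT and 2.83 in cKO (log2 -1.50, -2.17 to -0.86), Egr1 11.5 and 5.92 (-0.96, -1.44 to -0.48) and Nr4a1 14.7 and 9.99 (-0.56, -0.95 to -0.16). These levels are within the interval of the erythroid comparison for Nr4a1 and Egr1. The cycling class pooled a cluster led by Ube2c and Birc5 (599 WT and 590 cKO cells) with another led by Pclaf and Lig1 (392 and 693). Its 9 early post-selection markers, all detected, summed to 496 CPM in WT and 344 in cKO. The part of make-up in the cycling values was not tested. In DN cells, before Cd4-Cre acts, 4 members were lower by over 0.5, where 26.6% of genes were, and 1 was higher, where 10.1% were. The median over 7 members was -1.25, further below 0 than in cycling cells, against -0.11 over all genes. Counts there were few, with 9 UMIs of Nr4a1 in WT and 5 in cKO, and 11 and 6 of Egr1. Nr4a2, with 9 UMIs in 3 cells of WT and 1 UMI in cKO, was the 1 member whose interval lay below 0.

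**Figure D5:**
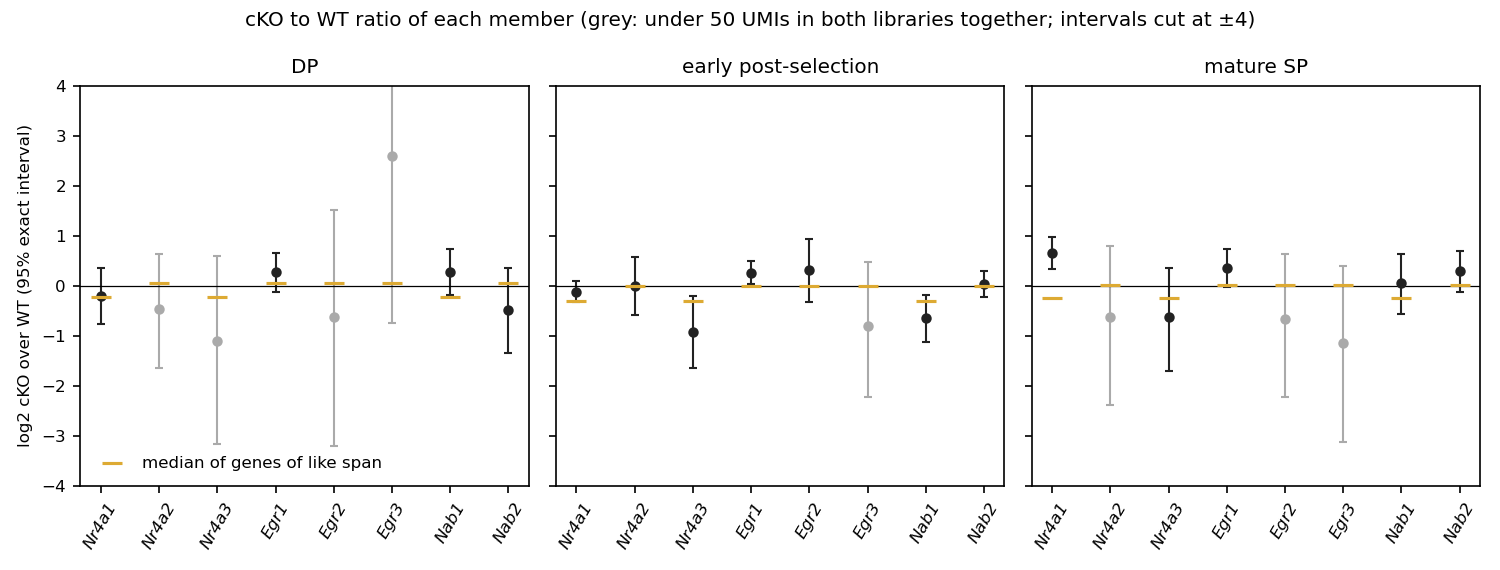
Log2 ratio of Eif4g2 cKO over WT (y axis) of each member in DP, early post-selection and mature SP cells, with exact 95% intervals cut at the axis limits of 4, and the median of genes of like genomic span as a yellow dash. Grey points rest on under 50 UMIs. Nr4a1 lies at 0.65 in mature SP cells, and Nr4a3 and Nab1 lie below 0 in early cells.

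Nr4a3 differed strongly between the libraries in the Xcl1 sub-cluster, a comparison picked after its values were seen. Nr4a3 had 41 UMIs in 18 of 71 cells of WT and 4 UMIs in 3 of 59 cells of cKO, or 157 (113 to 213) against 14.6 CPM (3.97 to 37.3), a log2 ratio of -3.43 (-5.37 to -1.96). With a finer division of the cells it was -2.54. In the same cells Nr4a1 differed by -0.52 (-0.95 to -0.10), Nr4a2 by 0.02 (-1.61, -2.81 to -0.54, without the cell of 22 UMIs), Egr3 by -3.65 (12 and 1 UMIs) and the leading gene Xcl1 by -0.29 (-0.73 to 0.14). Over the 1483 genes with at least 50 UMIs there, a minimum that Nr4a3 misses, the median was -0.11, and 5 genes were lower by over 3. Among TCR response genes, the NF-kB subunit Rel differed by -3.88 (28 and 2 UMIs), Gadd45b, a stress-induced regulator, by -3.19 (26 and 3), and the atypical IκB Nfkbid by -1.79 (33 and 10). The list did not move as a whole. Dusp2 differed by 0.90 (0.10 to 1.73), Pdcd1 by 0.48 (-0.13 to 1.10), Id3 by 0.34 (-0.03 to 0.71) and Ikzf2 by -0.22 (-0.44 to 0.002). The early and mature cells of the cluster were not equally split between libraries: 32 of its 71 WT cells and 44 of its 59 cKO cells were of the early class.

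The wider TCR response was described with 24 genes. Of those with at least 50 UMIs, 12 of 18 were higher in early post-selection than in DP cells by over 1 on the log2 scale in WT. In cKO 9 of 16 were, and none was lower in either library. Of all genes 4.23% were higher in WT and 2.38% in cKO. The medians were 1.30 and 1.29, against -0.15 and -0.23 over all genes. Id3, an inhibitor of E proteins, had 797 CPM in early cells of WT and 848 in cKO, and Ikzf2, which encodes Helios, had 813 and 565. Between the libraries 1 of 17 was higher by over 0.5 in early cells of cKO and 8 were lower. Of all genes 7.6% were higher and 35.7% lower. The median was -0.49 against -0.26 over all genes. The phosphatase gene Dusp2 was the higher one, at 1.53 (1.28 to 1.79). Rel differed by -2.14 (-2.95 to -1.40), Gadd45b by -1.56 (-2.53 to -0.68), and Bcl2l11, which encodes the death factor BIM, by -1.46 (-1.84 to -1.09). In mature SP cells 2 of 16 were higher and 8 lower, against 9.02% and 34.3% of all genes.

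Among 12 upstream factors and partners, none was higher in early post-selection than in DP cells by over 1 in either library. Of all genes 4.23% were in WT and 2.38% in cKO. In early cells of cKO 5 of the 8 with at least 50 UMIs were lower than in WT and none was higher. Of all genes 35.7% were lower and 7.6% higher. The median was -0.87 against -0.26 over all genes. Hdac7, which holds MEF2 factors in check at Nr4a1, had 696 CPM in WT and 309 in cKO (-1.17, -1.34 to -1.01). Mef2d differed by -0.96 (-1.25 to -0.67), Mef2a by -1.28 (-1.64 to -0.93) and Nfatc3 by -0.87 (-1.15 to -0.59). These factors were not set against genes of like span. Over all genes the median in early cells fell from 0.14 at spans up to 5 kb to -0.93 over 100 kb. The part of gene span in these values was not tested. In DN cells, before deletion, 3 of 6 were also lower, with a median of -0.63, and none was higher, against 26.6% of all genes lower, 10.1% higher and a median of -0.11.

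The 17 immediate-early and stress genes, which tissue dissociation also induces, had 12 with at least 50 UMIs in early cells, of which 3 were higher and 2 lower in cKO, with a median of 0.06. Jund differed by 0.63 (0.36 to 0.90) and Junb by -0.64 (-0.86 to -0.42). The 8 reference genes had a median of 0.28, with 1 of 7 higher and none lower. Markers of other cells also differed: the 5 erythroid markers summed to 293 CPM in early cells of WT (4 detected) and 15.1 in cKO (4 detected), and the 10 antigen-presenting markers to 101 (10 detected) and 40.9 (9 detected). In mature SP cells the 9 innate-like T cell markers summed to 539 CPM in WT and 303 in cKO. The B cell list had 32 UMIs in early cells of either library and the epithelial list 12 and 15. Their part in the members' values was not tested.

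Across 17 clusters of at least 50 cells, taken per library, the members followed each other and the genes of the early stage. Pearson's r of log2(CPM + 10) between members ran from 0.64 (Nr4a2 and Egr3) to 0.96 (Nr4a1 and Nab2). Among 7004 other genes with at least 500 UMIs, the most alike were Cd2 (0.94), Ephx1 and Cd5 for Nr4a1, Hivep3 (0.94), Ikzf2 and Zc3h15 for Nr4a2, and Retreg1 (0.93), Arid5b and Nfkbid for Nr4a3. For Egr1 they were Cd5 (0.93), Itm2a and Fam3c, for Egr2 Cd69 (0.93), Id2 and Lcp1, and for Egr3 Itm2a (0.93), Ephx1 and Sdhaf1. For Nab1 they were Cd69 (0.94), Nfkbid and Cd5, and for Nab2 Ephx1 (0.97), Itm2a and Cd5. Cd2, Cd5, Cd69 and Itm2a were also among the markers that named the early stage, and clusters of 1 library share its depth and preparation.

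The genes lie at separate places in the GENCODE M21 annotation of GRCm38. Nr4a1 (ENSMUSG00000023034.7) spans chr15:101254269-101274795 on the plus strand, Nr4a2 chr2:57106830-57124003 on the minus strand and Nr4a3 chr4:48045153-48086447 on the plus strand. Egr1 lies at chr18:34859823-34864984, Egr2 at chr10:67535475-67542188 and Egr3 at chr14:70077203-70082614, all on the plus strand. Nab1 lies at chr1:52457294-52500679 and Nab2 at chr10:127660918-127668568, both on the minus strand. Counts of Nab2 are uncertain in part: 34.9% of the 50-base words of its transcripts occur in reverse complement in transcripts of 6 other genes, Gm16229 above all (31.3%), and the strand setting of the counting is not given in the sources used here. The same share was 0 for Nr4a1, Nr4a2 and the 3 EGR genes.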

How the data were processed

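Thymus cells of 1 WT and 1 Eif4g2 cKO mouse had been captured on the DNBelab C4 system. The authors processed the reads with dnbc4tools (the series' design text gives version 2.1.3, the file header 3.0; the submitters' processing notes name mm10) and deposited whole-number UMI counts per gene and barcode, which were assigned to the cDNA libraries. The deposited barcodes hold 1000 to 50432 UMIs in WT and 1000 to 44595 in cKO. The oligo libraries were not used here.

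Cells with at least 50 genes and at most 10% mitochondrial UMIs were kept (6012 WT, 4335 cKO), and genes seen in fewer than 3 cells were dropped. After scaling to 10000 UMIs a cell and taking logs, each of 2000 variable genes was centred on its library mean, and 30 principal components and 20 neighbours gave Leiden clusters at resolution 1.0 (0.6 for sub-clusters; scanpy 1.11.5, leidenalg 0.10.2, seed 1). A cluster was named where at least 3 markers of a list were raised by 0.5 on the log2 scale. Stage names are thus rebuilt and need not match those of the study. No doublet caller was run; an upper limit of 10000 UMIs was an alternative. UMIs were summed per class and given exact Poisson intervals, ratios exact conditional binomial intervals and shares Clopper-Pearson intervals, all at 95% (scipy 1.17.1), with a floor of 3 counts. The steps were tested on simulated data.

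The members and lists were chosen with earlier results of these data known. Besides the members, the text names from each list genes among the 4 with the most UMIs or the 4 with the largest ratios at 50 or more UMIs, and for each member the 3 genes most alike across clusters. The TCR response genes given for the Xcl1 sub-cluster, Nfkbid, Gadd45b and Rel among them, were named after their values were seen.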

Additional observations from a re-analysis of the deposited data

How the results depend on the processing

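The 84 values recomputed for the comparisons stayed within their error or count range under every alternative run. In DP, early and mature SP cells, the only stages compared in these runs, no member's ratio of over 0.5 whose interval excluded 0 changed sign. Members counted as lower whose intervals included 0 did: Egr3 reached 0.42 in early cells, Egr2 0.10 in DP cells, and in mature SP cells Nr4a2 reached 1.30, Nr4a3 and Egr3 0.59 and Egr2 0.04. The number of members higher in early post-selection than in DP cells was 7 or 8 throughout. The median log2 ratio of cKO over WT ran from -0.25 to 0.05 in DP, -0.41 to 0.20 in early and -0.27 to 0.38 in mature SP cells, so its sign is not settled in any of the 3 stages. The medians of the main run, -0.33 in DP and -0.28 in mature SP cells, lay below every alternative. Nr4a1 in mature SP cells ran from 0.52 to 1.09 over 12 alternatives. The co-detection ratio of Nr4a1 and Egr1 ran from 1.68 to 2.60 in WT and 1.34 to 1.75 in cKO.

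Of the single members' values 278 stayed within their error and 25 values in all moved beyond it. With each library clustered alone, Nr4a2 was at -0.85 in early and 1.30 in mature SP cells. Without the cell with the most Nr4a2 UMIs, an alternative also chosen after seeing the data, Nr4a2 was at -0.90 in early cells. Thinned to 1000 UMIs, Egr1 was at 0.59 in early and 0.80 in mature SP cells. With stages from marker scores, Nr4a3 was at -2.26 in mature SP cells, and without the Xcl1 sub-cluster, another such alternative, at 0.41. With a minimum of 1 UMI, the shares of genes higher in cKO became 14.8% in DP, 14.1% in early and 16.7% in mature SP cells. The cause was not tested.

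No paired analysis was possible because each genotype has 1 library, so no replicate was left out either. Depth limits Egr3, Egr2, Nr4a2 and Nr4a3 most, since each had under 300 UMIs over both libraries.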
